A study of Homo sapiens with 15 samples.

Results

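The insulin and IGF genes described here are the receptors INSR, IGF1R and IGF2R, the receptor substrates IRS1 and IRS2, and the binding proteins IGFBP3, IGFBP4, IGFBP5 and IGFBP6. These 9 genes were taken by symbol from gene-level RNA-seq values of a pair of human clear cell renal cell carcinoma (ccRCC) lines. They were chosen with earlier results of these data known, and the study had already named IRS1 and IRS2 from them. All 9 are among the 16296 genes listed for CAKi-1, a line with WT VHL. In 786O, a line with mutant VHL, 8 are among the 16188 genes listed, and IGFBP5 is not. The 15 libraries addressed what the loss of ANGPTL4, a secreted inhibitor of lipoprotein lipase, changes in ccRCC cells. CAKi-1 has 4 WT and 5 A4KO libraries, and 786O has 3 WT and 3 A4KO libraries, all from cells harvested in log phase. A4KO cells of either line were made by combining CRISPR-Cas9 clones that had lost ANGPTL4 mRNA. 786O WT cells were combined from clones of the same procedure that kept it. For CAKi-1 WT, the study's methods name parental cells, because no clone had kept ANGPTL4, whereas the deposited description names combined clones for both lines. If the CAKi-1 WT cells were parental, the loss of ANGPTL4 and the passage through single clones cannot be told apart in that line. 786O WT and A4KO cells are pools of different clones, so there the loss of ANGPTL4 and the choice of clones cannot be told apart. The same holds for CAKi-1 if its WT cells were combined clones. The labels do not say that the libraries of a group came from separate cultures, so p-values measure only the spread between these libraries, which may be technical.

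Insulin and the insulin-like growth factors bind INSR and IGF1R, which are receptor tyrosine kinases. IRS1 and IRS2 dock on the active receptors and pass the signal to PI3K and AKT, and AKT keeps the FOXO transcription factors out of the nucleus. IGF2R has no kinase and instead carries IGF2, and lysosomal enzymes that bear mannose 6-phosphate, to endosomes. Outside the cell, the IGFBPs hold IGFs in complexes, and proteases such as PAPPA cut them and free the ligand. In ccRCC, IGFBP3 is known for its high expression.

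Values are in TPM, which corrects for gene length and scales each library to the same sum, so that levels of different genes within a library can be set side by side. ANGPTL4 was measured first, as a check of the labels. Its TPM in CAKi-1 WT cells was 74.9, 83.2, 86.9 and 71.7, and in A4KO cells 7.26, 2.87, 2.87, 6.47 and 2.90 (replicates 1 to 5). In 786O it was 20.6, 17.6 and 18.1 in WT and 2.19, 2.17 and 1.86 in A4KO. Every A4KO library was below every WT library of its line. The CAKi-1 A4KO replicates 1 and 4, which kept the most ANGPTL4, also stood apart across the transcriptome. Over 11065 genes with a mean log2 value above 2, their log2(TPM + 1) values correlated with each other at r = 0.996 and with A4KO replicates 2, 3 and 5 at 0.976 to 0.983, while the latter 3 correlated among themselves at 0.994 to 0.996. These correlations run across genes, which are not independent replicates. Many CAKi-1 results are therefore also given without replicates 1 and 4. Among WT libraries, replicate 4 was closer to A4KO (0.946 to 0.975) than replicate 1 (0.927 to 0.962). For ANGPTL4, INSR, IRS2, IGFBP4, IGFBP6, IGF2, PAPPA, SOCS1 and MMP7 it was the WT library nearest to A4KO, and for IGF1R and STC2 the farthest. In 786O, mitochondrial genes made up 7.47% to 8.16% of summed TPM in WT and 9.46% to 10% in A4KO, and the part of this shift in the 786O changes was not tested. RNA was taken from bulk cultures, so a change in the share of 1 kind of cell and a change of RNA within each cell cannot be told apart.

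A4KO was compared with WT in each line by limma on log2(TPM + 1), and adjusted p-values cover every gene of the line. Fold changes on this scale understate the change of genes with low values. In CAKi-1, IRS1, IRS2, INSR, IGFBP3 and IGFBP4 rose and IGF1R and IGFBP6 fell at an adjusted p of at most 0.05, so that 5 of 9 were higher and 2 of 9 lower. Of all genes in CAKi-1, 17.9% were higher and 21.1% lower by this rule. Without A4KO replicates 1 and 4, again 5 were higher and 2 lower, against 16.7% and 22.2% of all genes. For the same 7 genes no A4KO library lay within the WT range or the reverse, against 35.9% of all genes. The study's thresholds also ask for a log2 fold change of at least 1 in either direction. With these applied to log2(TPM + 1), 4 were higher (IGFBP3, IGFBP4, IRS2 and IRS1) and 0 lower, against 2.21% and 1.12% of all genes. Without replicates 1 and 4, that number was 2 (IGFBP3 and IGFBP4) and 0, against 1.6% and 0.927% of all genes.

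In 786O, IRS2 and IGFBP3 rose and INSR, IGFBP4 and IGFBP6 fell, so that 2 of 8 were higher and 3 of 8 lower at the adjusted p, near the 27.5% and 33.5% of all genes. The libraries of 5 of 8 did not overlap between WT and A4KO, against 66.9% of all genes. IRS2 alone also passed the fold change threshold, upward, where 2.43% of all genes were called higher and 5.19% lower. These calls number 393 higher and 840 lower, or 31.9% higher, a split that quantile normalization moved to 42.7% higher. The difference between the lines was tested as an interaction term over the 15247 genes listed for both. It passed for 5 of 8 genes, IRS1, INSR, IGF1R, IGFBP3 and IGFBP4, and for 55.1% of all genes, so this share lies close to that of the whole transcriptome.

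**Figure D1:**
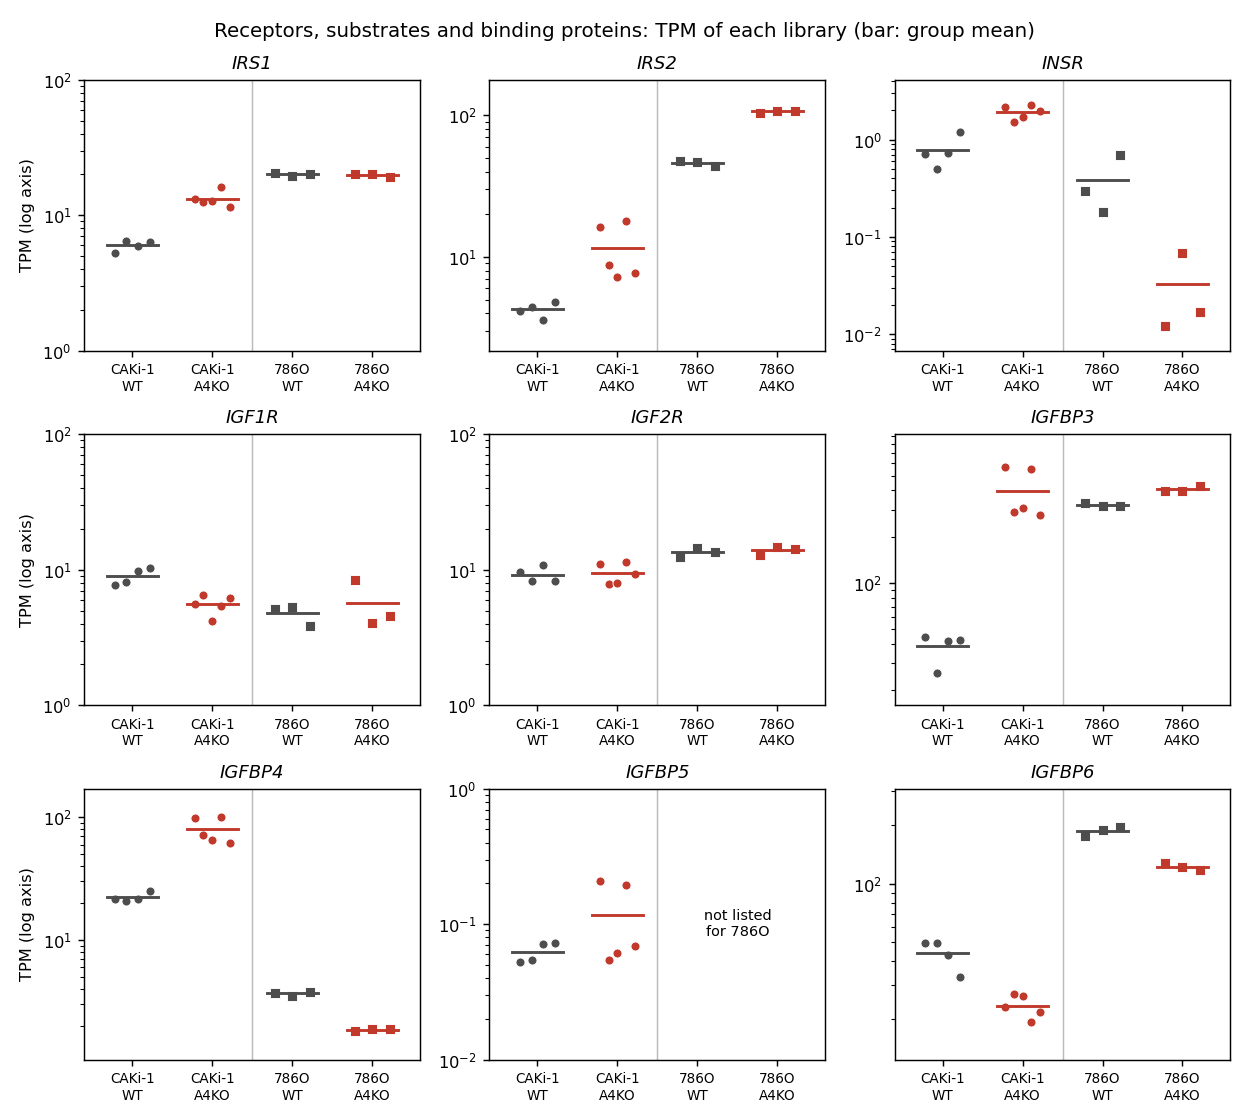
TPM of the 9 genes (log axis) in each library of the 4 groups, with a bar at the group mean. In CAKi-1, all A4KO points of IGFBP3 (277 to 569 TPM) lie above all WT points (26.0 to 44.4 TPM), whereas IGF2R points overlap in both lines.

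**Figure D2:**
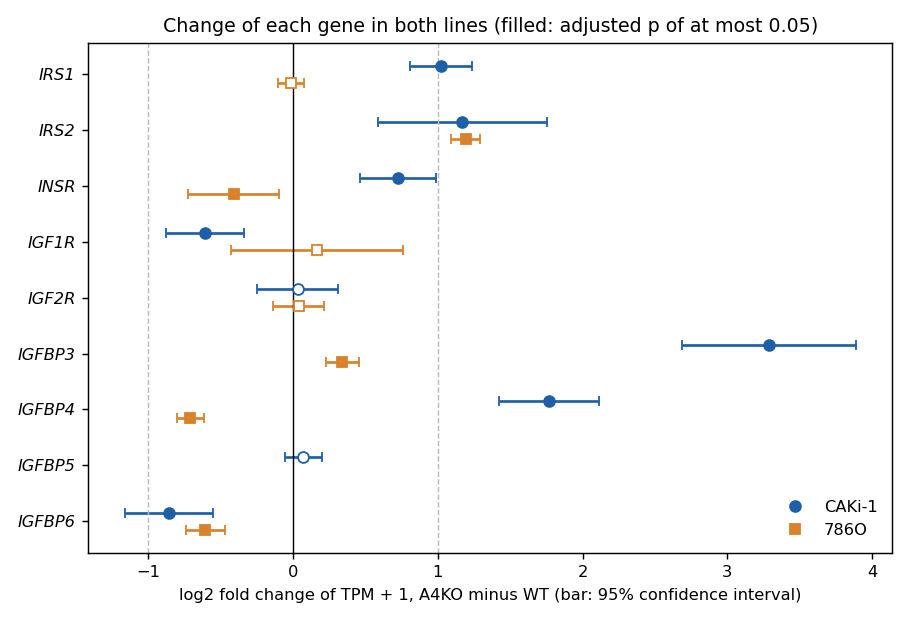
Log2 fold change of TPM + 1, A4KO minus WT, for each gene in CAKi-1 (circles) and 786O (squares), with 95% confidence intervals; filled symbols passed the adjusted p. IGFBP4 lies at 1.77 in CAKi-1 and at -0.71 in 786O, and IGFBP6 lies below 0 in both.

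Among the ligands, INS was not listed for either line and IGF1 stayed at group means of 0.0654 TPM or less in both. IGF2, a growth factor of fetal tissues that binds IGF1R, IGF2R and one form of INSR, was near 0 in CAKi-1 WT cells, at 0.103, 0.102, 0.0117 and 0.264 TPM. In CAKi-1 A4KO cells it was 27.2, 17.9, 17.9, 24.2 and 15.5 TPM. Every A4KO library was thus far above every WT library. This is a log2 fold change of 4.24 (SE 0.15, adjusted p = 5.02e-07), and 4.02 without replicates 1 and 4. The ratio of the mean TPM (20.5 against 0.120) rests on WT values too low to give it a firm size. In 786O, IGF2 was at most 0.0541 TPM in every library, and the effects differed between lines (interaction -4.26, adjusted p = 1.19e-09). INS-IGF2 and IGF2-AS, which overlap IGF2 in the annotation, were not listed for either line, and reads that they share with IGF2 cannot be told apart here.

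Of the receptors, INSR and IGF1R moved in opposite directions in CAKi-1. INSR (22 exons, minus strand, chr19:7112255-7294414), the insulin receptor, was 0.703, 0.495, 0.731 and 1.19 TPM in WT and 2.15, 1.52, 1.68, 2.26 and 1.97 TPM in A4KO. It rose by a log2 fold change of 0.72 (SE 0.12, adjusted p = 0.00138), a ratio of mean TPM of 2.46, with no overlap between groups. IGF1R (21 exons, plus strand, chr15:98648539-98964530), the receptor for both IGFs, was 7.71, 8.19, 9.80 and 10.3 TPM in WT and 5.61, 6.48, 4.19, 5.41 and 6.14 TPM in A4KO. It fell by 0.61 on the log2 scale (SE 0.12, adjusted p = 0.00359), again with no overlap. Both changes held without A4KO replicates 1 and 4, at 0.63 for INSR and -0.61 for IGF1R.

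In 786O, INSR values all lay below 1 TPM, at 0.294, 0.181 and 0.686 in WT and 0.0123, 0.0692 and 0.0170 in A4KO. That is a log2 fold change of -0.41 (SE 0.13, adjusted p = 0.0330). The call did not hold with each library left out. Without WT replicate 1 the fold change was -0.45 (adjusted p = 0.0570), and without A4KO replicates 1, 2 and 3 it was -0.39, -0.43 and -0.40 (adjusted p = 0.0841, 0.0638 and 0.0841). Without WT replicate 3 it shrank to -0.26 and passed. With a pseudocount of 0.1 in place of 1, INSR was at 1.24 in CAKi-1 and -1.76 in 786O, past the fold change threshold in both, with an interaction of -3.01, so the size of its change depends on the pseudocount. IGF1R in 786O was 5.14, 5.34 and 3.82 TPM in WT and 8.34, 4.06 and 4.59 TPM in A4KO, where replicate 1 stood above the other libraries. Its log2 fold change of 0.16 had a 95% interval of -0.43 to 0.76 (adjusted p = 0.599). The effects of the knockout differed between the lines for INSR (interaction -1.13, adjusted p = 1.64e-04) and for IGF1R (0.77, adjusted p = 0.0220).

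The INSR share of the summed TPM of INSR and IGF1R puts the levels of both genes in 1 number. Shares, here and below, are built from genes already compared, so they restate those comparisons and add no separate evidence. In CAKi-1 it was 7.84% ± 2.0 (SD, n = 4) in WT and 25.9% ± 4.28 (SD, n = 5) in A4KO. Without replicates 1 and 4 the A4KO mean was 24.0%. In 786O the share was 7.97% ± 6.37 (SD, n = 3) in WT and 0.731% ± 0.825 (SD, n = 3) in A4KO, where only INSR passed the test. WT replicate 3 stood at 15.2%, and the difference of -7.24 percentage points ran from -9.58 to -3.62 with 1 library left out. The gene-level values do not separate the INSR isoforms that differ in their affinity for IGF2.

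IGF2R (48 exons, plus strand, chr6:159969082-160113507) had overlapping groups in both lines. In CAKi-1 it ranged from 8.25 to 10.8 TPM in WT and from 7.82 to 11.4 TPM in A4KO (log2 fold change 0.03, 95% interval -0.25 to 0.31, adjusted p = 0.862). In 786O it ranged from 12.4 to 14.5 TPM in WT and from 12.8 to 14.7 TPM in A4KO (0.04, 95% interval -0.14 to 0.22, adjusted p = 0.685). The genes next to IGF2R on chromosome 6 were lower in 786O A4KO cells by a median of -0.31 on the log2 scale. With that shift taken off, IGF2R itself was higher by 0.35 (adjusted p = 0.00654).

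The substrates IRS1 and IRS2 both rose in CAKi-1, and only IRS2 passed the test in 786O. Each gene has 2 exons in its canonical transcript and lies on the minus strand, IRS1 at chr2:226731312-226799820 and IRS2 at chr13:109752695-109786583. Their promoters are shown because both genes moved in the same direction in CAKi-1. They were taken from the RefSeq table for GRCh38.p14, which holds all 9 genes, and run from 250 bases before to 50 bases after the start that the table gives (IRS1 chr2:226799771-226800070, IRS2 chr13:109786534-109786833, both minus strand, written 5′ to 3′). Capitals mark 3 groups of short motifs found by exact search on both strands. The FOXO core is TGTTTAC, which reads GTAAACA on the opposite strand. The hypoxia response core is ACGTG, which reads CACGT there, or its variant GCGTG, which reads CACGC there. The GC box is GGGCGG, which reads CCGCCC there. Matches may overlap.
IRS1: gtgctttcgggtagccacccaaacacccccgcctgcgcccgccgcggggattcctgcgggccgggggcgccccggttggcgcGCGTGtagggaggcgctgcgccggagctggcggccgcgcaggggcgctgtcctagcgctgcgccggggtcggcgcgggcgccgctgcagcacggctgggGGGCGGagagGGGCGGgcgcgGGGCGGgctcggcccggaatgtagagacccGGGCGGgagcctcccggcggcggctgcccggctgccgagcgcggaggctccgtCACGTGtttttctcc
IRS2: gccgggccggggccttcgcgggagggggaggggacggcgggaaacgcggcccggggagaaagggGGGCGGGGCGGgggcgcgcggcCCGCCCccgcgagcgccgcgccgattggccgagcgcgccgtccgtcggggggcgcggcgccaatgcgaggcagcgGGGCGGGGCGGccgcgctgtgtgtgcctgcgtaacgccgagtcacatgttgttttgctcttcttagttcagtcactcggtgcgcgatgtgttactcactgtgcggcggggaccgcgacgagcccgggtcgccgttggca

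IRS1 holds 4 GC boxes and 3 matches to the hypoxia response core, and IRS2 holds 5 GC boxes and 0 matches to that core. The CACGTG near the end of the IRS1 window reads the same on both strands and was counted on each. Neither window holds the FOXO core. Of the 35116 promoters in the table, 45.0% hold a GC box, 48.4% hold the hypoxia response core and 3.42% hold the FOXO core. A GC content of 79.3% for IRS1 and 75.7% for IRS2 compares with a median of 58.7% over the table. These matches describe the letters and were not tested as binding sites.

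IRS1 TPM in CAKi-1 was 5.25, 6.48, 5.90 and 6.36 in WT and 13.3, 12.6, 12.6, 16.3 and 11.5 in A4KO. The mean rose 2.21-fold, from 5.999 ± 0.559 (SD, n = 4) to 13.3 ± 1.80 TPM (SD, n = 5), with every A4KO library above every WT library. The log2 fold change was 1.02 (SE 0.10, adjusted p = 7.79e-05). It lay just above the fold change threshold and fell below it without replicates 1 and 4 (0.92), without A4KO replicate 4 (0.95), without WT replicate 1 (0.97), and with quantile normalization (0.99) or neighbour-centred values (0.98). In 786O, IRS1 was 20.4, 19.5 and 20.2 TPM in WT and 20.0, 20.0 and 19.3 TPM in A4KO, and the groups overlapped. The log2 fold change of -0.02 had a 95% interval of -0.11 to 0.07 (adjusted p = 0.725). The effects in the lines differed by -1.04 (adjusted p = 1.06e-05). Genes around IRS1 were lower in 786O A4KO cells by a median of -0.18, and with that shift taken off IRS1 was higher by 0.16 (adjusted p = 0.0154).

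IRS2 TPM in CAKi-1 was 4.18, 4.45, 3.61 and 4.799 in WT and 16.2, 8.73, 7.17, 17.9 and 7.75 in A4KO. A4KO replicates 1 and 4 lay well above the other A4KO libraries, and no A4KO library overlapped with WT. This gives a log2 fold change of 1.17 (SE 0.26, adjusted p = 0.00675). It was 0.76 without replicates 1 and 4 (adjusted p = 7.72e-04) and 0.997 without replicate 4 alone (adjusted p = 0.00930), below the fold change threshold in both cases. In 786O, IRS2 was 47.2, 46.3 and 44.02 TPM in WT and 104, 107 and 107 TPM in A4KO. That is a 2.31-fold rise of the mean and a log2 fold change of 1.19 (SE 0.04, adjusted p = 3.22e-06).

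The rise of IRS2 in 786O was shared in part by its neighbours. The 25 expressed genes on each side of IRS2 on chromosome 13 were higher in 786O A4KO cells by a median of 0.61 on the log2 scale, against 0.08 in CAKi-1. With that shift taken off, IRS2 was higher by 0.58 in 786O (adjusted p = 6.08e-05) and by 1.08 in CAKi-1 (adjusted p = 0.00910). The part of copy number or of the choice of clones in this shift was not tested. The interaction for IRS2 was 0.02 (adjusted p = 0.959), and 0.43 (adjusted p = 0.00494) without CAKi-1 A4KO replicates 1 and 4.

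As a share of the summed TPM of IRS1 and IRS2, IRS2 rose from 69.6% ± 0.950 (SD, n = 3) in 786O WT to 84.3% ± 0.422 (SD, n = 3) in A4KO cells, with no overlap (exact permutation p = 0.1, the smallest that 3 against 3 libraries can give). In CAKi-1 the share was 41.5% ± 2.79 (SD, n = 4) in WT and 44.9% ± 8.22 (SD, n = 5) in A4KO, which overlapped (exact permutation p = 0.476). Replicates 1 and 4 were at 54.9% and 52.4%, and the mean of the other A4KO libraries was 39.1%.

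The promoters of the binding protein genes IGFBP3, IGFBP4 and IGFBP6 are shown for the same reason, since IGFBP3 and IGFBP4 rose together in CAKi-1 and IGFBP6 fell in both lines. IGFBP3 lies on the minus strand of chromosome 7 (promoter chr7:45921223-45921522), IGFBP4 on the plus strand of chromosome 17 (chr17:40443200-40443499) and IGFBP6 on the plus strand of chromosome 12 (chr12:53097417-53097716). Source, build and capitals are as for IRS1 and IRS2. The table's start lies 602 bases inside the annotated gene for IGFBP3 and 231 bases inside it for IGFBP6, so these windows lie wholly or mostly within those genes.
IGFBP3: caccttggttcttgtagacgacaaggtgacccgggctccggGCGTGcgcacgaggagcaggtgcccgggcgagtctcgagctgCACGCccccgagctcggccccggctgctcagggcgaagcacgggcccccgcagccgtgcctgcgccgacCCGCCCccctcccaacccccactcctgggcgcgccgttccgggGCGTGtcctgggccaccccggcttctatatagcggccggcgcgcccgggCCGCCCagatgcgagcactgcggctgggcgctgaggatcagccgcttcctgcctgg
IGFBP4: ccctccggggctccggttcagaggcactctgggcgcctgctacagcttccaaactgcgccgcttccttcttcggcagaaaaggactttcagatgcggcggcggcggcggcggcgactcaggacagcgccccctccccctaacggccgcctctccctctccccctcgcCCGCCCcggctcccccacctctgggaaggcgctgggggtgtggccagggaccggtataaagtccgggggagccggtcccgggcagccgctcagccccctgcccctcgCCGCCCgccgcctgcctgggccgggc
IGFBP6: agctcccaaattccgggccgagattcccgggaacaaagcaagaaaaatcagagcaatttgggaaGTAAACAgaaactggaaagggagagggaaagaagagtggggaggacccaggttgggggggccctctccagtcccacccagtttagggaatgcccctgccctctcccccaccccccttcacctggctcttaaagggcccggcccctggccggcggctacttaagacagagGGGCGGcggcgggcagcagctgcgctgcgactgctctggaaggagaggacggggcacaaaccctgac

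IGFBP3 holds 3 matches to the hypoxia response core and 2 GC boxes, IGFBP4 holds 2 GC boxes alone, and IGFBP6 holds 1 GC box and 1 FOXO core. IGFBP6 is the only 1 of the 9 genes whose window holds the FOXO core. Among the windows not shown, IGF2R holds 6 matches to the hypoxia response core, IGF1R 5, INSR 0 and IGFBP5 0. Their GC boxes number 6, 2, 4 and 0 in the same order. Its GC content of 61.7% and the 59.0% of IGFBP5 lie nearest to the table's median, and the other 7 lie between 74.0% and 79.7%.

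IGFBP3, the main carrier of IGFs in serum, had the largest rise of the 9 genes in CAKi-1. Its TPM was 44.4, 26.0, 41.5 and 42.4 in WT and 569, 288, 307, 550 and 277 in A4KO. The mean rose 10.3-fold, from 38.6 ± 8.45 (SD, n = 4) to 398 ± 148 TPM (SD, n = 5). On the log2 scale it rose by 3.29 (SE 0.27, adjusted p = 3.63e-05). Replicates 1 and 4 were the highest A4KO libraries, and without them the log2 fold change was 2.91 (adjusted p = 4.92e-05). In 786O, IGFBP3 was already at 332, 318 and 315 TPM in WT and was 396, 397 and 430 TPM in A4KO. The log2 fold change there was 0.34 (SE 0.05, adjusted p = 0.00111), and 0.62 with the shift of -0.28 in its neighbours taken off. The interaction was -2.95 (adjusted p = 8.51e-06).

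IGFBP4, which holds IGFs until PAPPA cuts it, moved in opposite directions in the lines. In CAKi-1 it was 21.5, 20.9, 21.6 and 25.1 TPM in WT and 98.7, 72.3, 64.9, 100.2 and 62.4 TPM in A4KO. That is a 3.58-fold rise of the mean and a log2 fold change of 1.77 (SE 0.15, adjusted p = 5.01e-05), and 1.54 without replicates 1 and 4. In 786O its level was far lower, at 3.70, 3.50 and 3.78 TPM in WT and 1.80, 1.87 and 1.88 TPM in A4KO. It fell there by 0.71 on the log2 scale (SE 0.04, adjusted p = 1.86e-05). The groups did not overlap in either line, and the interaction was -2.48 (adjusted p = 2.33e-07).

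IGFBP6, which prefers IGF2 over IGF1, fell in both lines. In CAKi-1 it was 49.4, 49.5, 43.2 and 33.2 TPM in WT and 23.3, 27.0, 26.3, 19.5 and 21.8 TPM in A4KO. Its log2 fold change was -0.86 (SE 0.14, adjusted p = 0.00118), and -0.77 without replicates 1 and 4. In 786O it was 175, 190 and 197 TPM in WT and 127, 122 and 118 TPM in A4KO, with a log2 fold change of -0.61 (SE 0.06, adjusted p = 1.63e-04). Every A4KO library was below every WT library of its line, and the interaction of 0.25 did not pass the test (95% interval -0.14 to 0.64, adjusted p = 0.257). IGFBP5 was hardly expressed in CAKi-1, at 0.0526 to 0.0724 TPM in WT and 0.0547 to 0.208 TPM in A4KO (log2 fold change 0.07, adjusted p = 0.368).

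**Figure D3:**
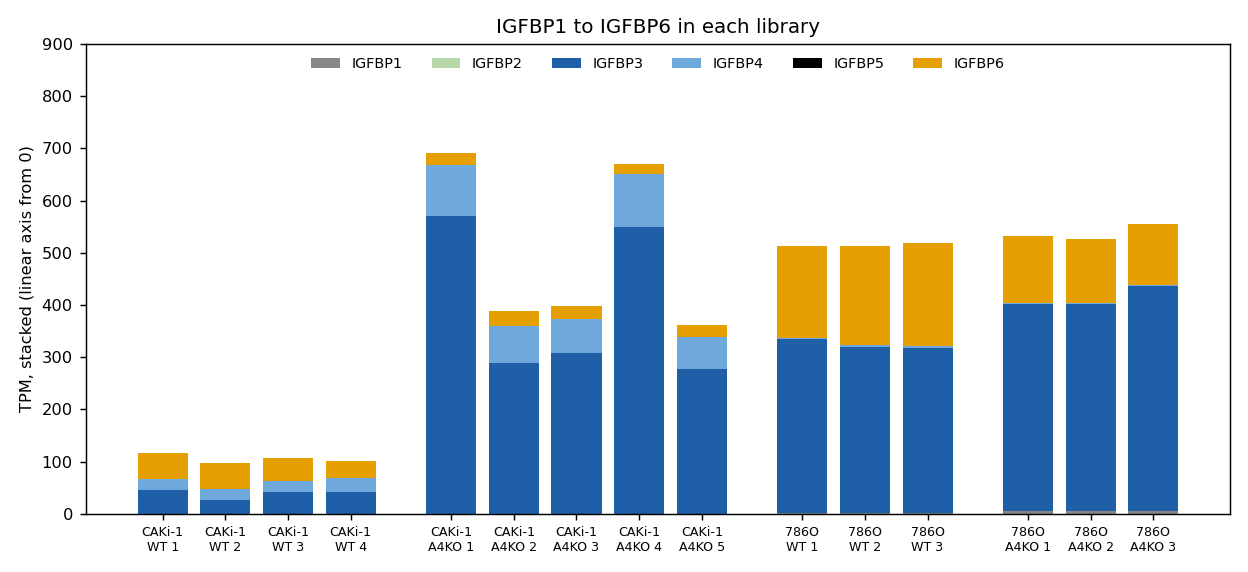
Stacked TPM of IGFBP1 to IGFBP6 in each library (linear axis from 0); a gene not listed for a line is not drawn there. The sum is 96.7 to 115 TPM in CAKi-1 WT libraries and 361 to 692 TPM in CAKi-1 A4KO libraries, while all 786O libraries lie between 513 and 556 TPM.

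Summed over IGFBP1 to IGFBP6, TPM rose in CAKi-1 from 105 ± 8.10 (SD, n = 4) to 502 ± 164 (SD, n = 5), a ratio of 4.79 (exact permutation p = 0.0159, the smallest possible for 4 against 5 libraries). In 786O the sum was 515 ± 2.66 (SD, n = 3) in WT and 538 ± 15.6 (SD, n = 3) in A4KO. The make-up changed more than the sum in 786O. IGFBP3 made up 36.6% of the sum in CAKi-1 WT and 78.5% in A4KO cells, and 62.5% and 75.8% in 786O. IGFBP6 made up 41.9% and 5.18% in CAKi-1, and 36.4% and 22.8% in 786O. Without replicates 1 and 4, the CAKi-1 A4KO means were 76.0% for IGFBP3 and 6.54% for IGFBP6.

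Of the other binding proteins, IGFBP1, a secreted IGF carrier that lies beside IGFBP3 on chromosome 7, was not listed for CAKi-1. In 786O it rose from 1.59, 1.95 and 1.66 TPM in WT to 5.67, 5.41 and 5.40 TPM in A4KO (log2 fold change 1.25, SE 0.06, adjusted p = 1e-05). On the whole list of 8 binding proteins, 7 were listed for each line. In CAKi-1, 3 rose (IGFBP3, IGFBP4 and IGFBP7) and IGFBP6 fell, against 17.9% and 21.1% of all genes. In 786O 3 rose (IGFBP1, IGFBP3 and IGFBP7) and 3 fell (IGFBP2, IGFBP4 and IGFBP6), against 27.5% and 33.5%. IGFBP7, which binds IGFs only weakly, was the most abundant of them in CAKi-1, at a mean of 999 TPM in WT, and came after IGFBP3 in 786O (294 against 322 TPM in WT). In CAKi-1 it rose by 0.47, and by 0.29 without replicates 1 and 4. Its log2 fold change of 0.20 in 786O (adjusted p = 0.0435) turned to -0.33 with neighbour-centred values and did not pass without any 1 of 5 of the 6 libraries.

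The proteases that cut IGFBPs, and the stanniocalcins that inhibit PAPPA, form a list of 7 genes, all listed for both lines. In CAKi-1, PAPPA, HTRA1, ADAM12 and MMP7 rose and STC2 fell, so that 4 of 7 were higher and 1 of 7 lower, against 17.9% and 21.1% of all genes. The median log2 fold change of the list was 0.53, which is the value of STC1, whose groups overlapped (adjusted p = 0.266). Without replicates 1 and 4 the median was 0.27. In 786O, MMP7 rose and the other 6 fell, against 27.5% and 33.5% of all genes, with a median of -0.98 against -0.03 over all genes. STC2 fell and MMP7 rose in both lines.

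PAPPA, the metalloproteinase that cuts IGFBP4, was 0.860, 0.907, 1.84 and 3.62 TPM in CAKi-1 WT and 14.9, 9.26, 8.96, 15.2 and 8.44 TPM in A4KO cells. PAPPA rose there by 2.20 on the log2 scale (SE 0.29, adjusted p = 4.72e-04), and 1.92 without replicates 1 and 4. In 786O it was near 1 TPM in WT (0.945 to 1.08) and 0.556 to 0.744 TPM in A4KO, with a log2 fold change of -0.31 (SE 0.06, adjusted p = 0.00339), and of -0.61 with neighbour-centred values. STC2, a secreted inhibitor of PAPPA, was 375, 379, 362 and 448 TPM in CAKi-1 WT and 85.0, 75.8, 116, 66.2 and 108 TPM in A4KO. It fell by 2.13 on the log2 scale there (SE 0.16, adjusted p = 2.69e-05) and by 1.74 in 786O (SE 0.05, adjusted p = 1.73e-06), where the mean went from 153 to 44.9 TPM. PAPPA TPM as a percent of STC2 TPM was thus 0.446% ± 0.274 (SD, n = 4) in CAKi-1 WT and 13.7% ± 6.62 (SD, n = 5) in A4KO, and 9.24% without replicates 1 and 4. In 786O it was 0.676% ± 0.0593 (SD, n = 3) and 1.44% ± 0.253 (SD, n = 3).

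MMP7, a matrix metalloproteinase that also cuts IGFBPs, was 5.69, 3.90, 8.17 and 9.64 TPM in CAKi-1 WT and 75.6, 205, 169, 115 and 165 TPM in A4KO. Here replicates 1 and 4 were the lowest A4KO libraries. The log2 fold change was 4.21 (SE 0.31, adjusted p = 2.52e-05) in CAKi-1 and 1.75 (SE 0.05, adjusted p = 2.12e-06) in 786O, where the mean went from 6.54 to 24.3 TPM. HTRA1, a secreted serine protease, rose by 0.89 in CAKi-1 and fell by 1.18 in 786O on the log2 scale. ADAM12, a metalloproteinase that cuts IGFBP3 and IGFBP5, fell by 1.26 in 786O. Its rise of 0.48 in CAKi-1 (adjusted p = 0.0390) did not pass without replicates 1 and 4 (0.27, adjusted p = 0.116), nor without WT replicates 1, 2 or 3 (0.47, 0.44, 0.43) or A4KO replicates 1, 2 or 4 (0.40, 0.50, 0.40). STC1, the other stanniocalcin, fell by 0.98 in 786O.

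**Figure D4:**
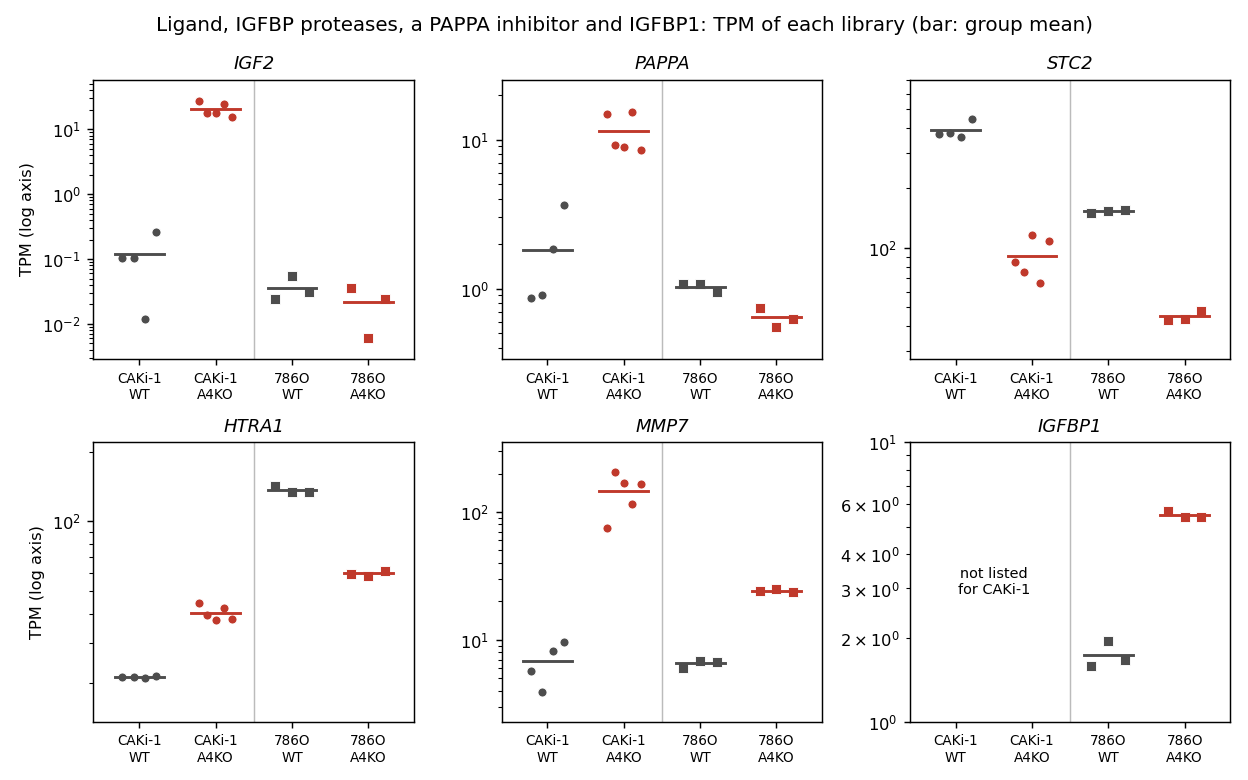
TPM (log axis) in each library of IGF2, the IGFBP proteases PAPPA, HTRA1 and MMP7, the PAPPA inhibitor STC2, and IGFBP1, with a bar at the group mean. IGF2 lies at 15.5 to 27.2 TPM in CAKi-1 A4KO libraries and at 0.264 TPM or less in all others, and STC2 is lower in A4KO than in WT in both lines.

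Counts in the lists below are read against the shares of all genes that rose or fell, 17.9% and 21.1% in CAKi-1 and 27.5% and 33.5% in 786O. Among 10 listed substrates and adaptors, 4 rose in CAKi-1 (IRS1, IRS2, GRB14 and SH2B2) and 4 fell (SHC1, GRB2, GRB10 and SH2B3), and in 786O 3 rose (IRS2, GRB2 and SH2B1) and 6 fell. GRB14, an adaptor that binds the insulin receptor and blocks its kinase, and SH2B2, an adaptor that binds the active receptor, moved in opposite directions in the lines. GRB14 was 5.78 to 7.91 TPM in CAKi-1 WT and 10.2 to 13.3 TPM in A4KO (log2 fold change 0.67, adjusted p = 0.00146). In 786O it was 15.8 to 16.8 TPM in WT and 3.43 to 4.82 TPM in A4KO (-1.72, adjusted p = 3.22e-05). SH2B2 rose by 1.15 in CAKi-1 (adjusted p = 3.92e-04) and fell by 1.499 in 786O (adjusted p = 4.84e-05). The interaction was -2.39 for GRB14 (adjusted p = 6.02e-08) and -2.65 for SH2B2 (adjusted p = 1.91e-07). The rise of GRB2 in 786O did not pass with neighbour-centred values (0.08).

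Transcripts of PI3K and AKT signalling moved in both directions. Of 19 genes, 3 rose in CAKi-1 (PIK3R1, PIK3R2 and TBC1D4) and 6 fell, and in 786O 6 rose and 6 fell, with medians of -0.03 in both lines that hide opposite changes. PIK3CD, a catalytic PI3K subunit, was the only 1 called at the fold change threshold. It was 15.7 to 17.7 TPM in 786O WT and 6.75 to 7.84 TPM in A4KO (log2 fold change -1.09, adjusted p = 3.01e-05, and -0.97 with quantile normalization), and its CAKi-1 groups overlapped (-0.03, adjusted p = 0.843).

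Of 13 negative regulators of insulin signalling, 3 rose in CAKi-1 (SOCS1, PIK3IP1 and PTPN2) and 3 fell (PTPN1, INPP4B and PHLPP2). Without replicates 1 and 4, 4 were higher and 5 lower. In 786O, 5 rose (PTPN1, INPP4B, PHLPP1, PHLPP2 and TRIB3) and 6 fell. SOCS1, a feedback inhibitor of cytokine signalling that can also mark IRS proteins for degradation, was 1.71, 1.94, 3.48 and 4.52 TPM in CAKi-1 WT and 12.9, 12.0, 9.25, 10.8 and 10.6 TPM in A4KO. The 786O values were 5.39, 4.89 and 5.52 TPM in WT and 1.2, 1.08 and 0.735 TPM in A4KO. The log2 fold changes were 1.68 (adjusted p = 2.95e-04) and -1.65 (adjusted p = 2.36e-05), with an interaction of -3.33 (adjusted p = 2.93e-07). SOCS2, of the same family, fell by 1.06 in 786O (-0.88 with quantile normalization, short of the fold change threshold). PTPN1, the phosphatase that acts on INSR and IGF1R, went the other way, from a mean of 64.8 to 40.8 TPM in CAKi-1 (-0.65, adjusted p = 5.73e-04) and from 34.9 to 64.9 TPM in 786O (0.87, adjusted p = 9.31e-06). PIK3IP1, an inhibitor of PI3K, rose by 1.13 in CAKi-1 (adjusted p = 0.0103), and by 0.71 without replicates 1 and 4, 0.98 without replicate 1 and 0.97 without replicate 4. The rise of TRIB3 in 786O (0.11) did not pass with 1 library fewer, except without WT replicate 2. With neighbour-centred values it was 0.38 and passed (adjusted p = 3.00e-04). The rise of INPP4B (0.26) did not pass without A4KO replicate 1, and that of PHLPP2 (0.51) did not pass with neighbour-centred values (0.14).

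IRS2, INSR and IGFBP1 belong to the known FOXO target genes, a list of 16. In CAKi-1, 13 of these were listed, of which 9 rose and 0 fell, against 17.9% and 21.1% of all genes. Their median log2 fold change was 0.82 (0.63 without replicates 1 and 4), against -0.01 over all genes. Among them are IRS2, INSR and PIK3IP1, which are also counted in the comparisons above, and TXNIP, TRIB1, CCNG2, FBXO32 and BCL6. The number was the same without replicates 1 and 4, but the number past the fold change threshold went from 4 (IRS2, TXNIP, TRIB1 and PIK3IP1) to 0. Of all genes, 2.21% were called higher, and 1.6% without replicates 1 and 4. In 786O, 14 were listed, 6 rose and 4 fell (INSR, TXNIP, BCL6 and TRIB1), against 27.5% and 33.5% of all genes, with a median of 0.11 against -0.03.

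TXNIP, a thioredoxin-binding protein that restrains glucose uptake, was 51.0, 44.1, 52.0 and 46.2 TPM in CAKi-1 WT and 166, 95.3, 72.9, 155 and 84.2 TPM in A4KO. The 786O values were 49.7, 48.7 and 51.2 TPM in WT and 8.12, 7.98 and 7.71 TPM in A4KO. The log2 fold changes were 1.16 (adjusted p = 0.00488, 0.78 without replicates 1 and 4) and -2.51 (adjusted p = 2.41e-07), and the interaction was -3.66 (adjusted p = 3.84e-07). FBXO32, a ubiquitin ligase of muscle wasting, rose in both lines, by 0.84 in CAKi-1 (adjusted p = 0.00156) and 0.99 in 786O (adjusted p = 1.32e-05). CCNG2, a cyclin of resting cells, rose by 0.99 in CAKi-1 (0.67 without replicates 1 and 4) and by 0.55 in 786O, and the latter was 0.24 with neighbour-centred values. TRIB1 rose by 1.17 in CAKi-1 and fell by 0.31 in 786O. BCL6, a transcriptional repressor, rose by 0.82 in CAKi-1 (adjusted p = 0.0234), 0.44 without replicates 1 and 4, and fell by 0.51 in 786O. Its CAKi-1 call was lost without WT replicates 1, 2 or 3 (adjusted p 0.0573, 0.0524 and 0.0559). The log2 fold changes there were 0.80, 0.83 and 0.81.

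Of the FOXO factors themselves, FOXO3 and FOXO4 rose in CAKi-1, by 0.38 and 0.93 (0.19 and 0.63 without replicates 1 and 4), and FOXO1, FOXO3 and FOXO4 fell in 786O, by 0.51, 0.22 and 0.18. The call of FOXO3 in CAKi-1 was lost without any 1 of 6 of the 9 libraries. Its log2 fold change ran from 0.30 to 0.44 with 1 library left out. In 786O, neighbour-centred values turned FOXO3 to 0.05 and FOXO4 to 0.54 and took FOXO1 further down, to -0.89. Quantile normalization left FOXO4 at -0.01, and its call (adjusted p = 0.0478) was lost without any 1 of 5 of the 6 libraries.

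IGF2R shares mannose 6-phosphate sorting with 9 other genes of a list of 10, all listed for both lines. In CAKi-1, SORT1 and GGA1 rose and 4 fell (M6PR, GNPTAB, GGA2 and VPS35), and in 786O SORT1 and GGA1 fell and 6 rose. With neighbour-centred values 4 were higher and 2 lower in CAKi-1, against 20.8% and 17.4% of all genes with such values, and 4 higher and 4 lower in 786O, against 29.2% and 29.9%. SORT1, a sorting receptor between the Golgi and endosomes, was 7.02 to 9.06 TPM in CAKi-1 WT and 13.2 to 14.6 TPM in A4KO (log2 fold change 0.78, adjusted p = 6.35e-05). 786O cells had 25.2 to 28.0 TPM in WT and 5.76 to 6.002 TPM in A4KO (-2.001, adjusted p = 9.89e-07). The falls of M6PR and VPS35 in CAKi-1 did not pass with neighbour-centred values (-0.27 and -0.11).

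**Figure D5:**
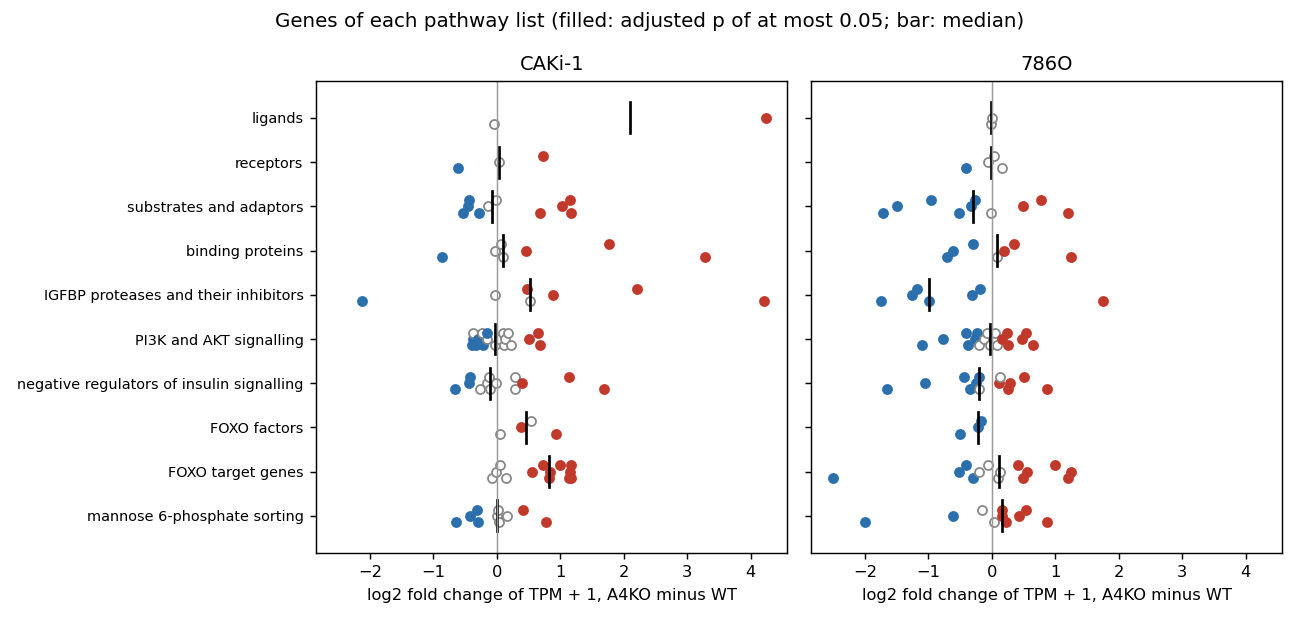
Log2 fold change of TPM + 1, A4KO minus WT, of every listed gene of each pathway list in CAKi-1 (left) and 786O (right); filled points passed the adjusted p and a bar marks the list's median. The bar of the FOXO target genes lies at 0.82 in CAKi-1 and at 0.11 in 786O, and that of the IGFBP proteases and their inhibitors at 0.53 and -0.98.

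Over all 10 pathway lists, 84 of 90 genes were listed for each line. In CAKi-1, 29 rose and 20 fell, against 17.9% and 21.1% of all genes, and in 786O 28 rose and 36 fell, against 27.5% and 33.5%. Each of these counts is a larger share of 84 than that of all genes, in both directions and both lines. The lists were chosen with earlier results of these data known. They also hold the 9 genes themselves, which give 5 of the 29 and 2 of the 20 in CAKi-1. In 786O these genes give 2 of the 28 and 3 of the 36, so the counts in part repeat those above. With neighbour-centred values 33 were higher and 16 lower in CAKi-1, against 20.8% and 17.4% of all genes with such values, and 27 and 36 in 786O, against 29.2% and 29.9%. In CAKi-1 the balance of all genes thus turned round, while the lists kept more genes higher than lower. Read against the same shares, these values gave 4 higher and 4 lower for PI3K and AKT signalling and 4 and 1 for the binding proteins in CAKi-1. In 786O they gave 2 and 5 for the binding proteins, 4 and 4 for the negative regulators, 1 and 1 for the FOXO factors, and 7 and 4 for the FOXO target genes. At the fold change threshold, 12 were higher, 4 of them among the 9 genes, and 1 lower in CAKi-1, against 2.21% and 1.12% of all genes. Without replicates 1 and 4 they were 7 and 1, against 1.6% and 0.927%. At the same threshold 3 were higher and 10 lower in 786O, against 2.43% and 5.19%.

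Levels set across the lines are a description, since each line has its own table. Among the 9 genes, CAKi-1 WT cells held IGFBP6 (43.8 TPM), IGFBP3 (38.6 TPM) and IGFBP4 (22.3 TPM) highest, followed by IGF2R (9.22 TPM) and IGF1R (8.99 TPM), then IRS1 (5.999 TPM) and IRS2 (4.26 TPM), with INSR (0.779 TPM) and IGFBP5 (0.0627 TPM) last. The ranges of IGFBP6 and IGFBP3 overlap, as do those of IGF2R and IGF1R. In 786O WT cells the order was IGFBP3 (322 TPM), IGFBP6 (187 TPM), IRS2 (45.9 TPM), IRS1 (20.0 TPM), IGF2R (13.5 TPM), IGF1R (4.77 TPM), IGFBP4 (3.66 TPM) and INSR (0.387 TPM). No 2 neighbours in that order had overlapping ranges, though IGF1R (3.82 to 5.34 TPM) and IGFBP4 (3.50 to 3.78 TPM) came close.

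The genes whose log2(TPM + 1) was most like that of each called gene were found by Pearson correlation over the libraries of the line, among 12742 genes with a mean of at least 1 TPM in CAKi-1 and 12625 in 786O. Such correlations rest largely on the difference between WT and A4KO. Over the 9 CAKi-1 libraries, IRS1 was most like LAPTM4B (r = 0.995), RBMXL1 (0.990) and ITGA7 (0.990), and IRS2 most like ARFGAP3 (0.994), TNS3 (0.994) and EIF4E3 (0.993). IGFBP3 was most like HLA-B (0.996), MT1F (0.996) and ARNT2 (0.995), and IGFBP4 most like EBI3 (0.999), P3H1 (0.999) and FN1 (0.998). Over the 6 libraries of 786O, IRS2 was most like CA2, TMEM245 and H2AC6, each at r = 1.0.

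Most markers of the labelled cell type were present. Of 9 markers of renal epithelium and ccRCC, 7 were listed for CAKi-1 and 9 for 786O, each with a mean of at least 1 TPM over all libraries of the line. In 786O A4KO cells, CA9 was below that, at a mean of 0.287 TPM against 7.54 TPM in WT. CA9 and PAX2 were not listed for CAKi-1. VIM was the most abundant of the list (2702 and 3967 TPM over all libraries of the line), and the summed list went from 5306 to 6379 TPM in CAKi-1 WT to 2795 to 3719 TPM in A4KO, and from 5805 to 6014 TPM to 4354 to 4404 TPM in 786O. Single markers of the list moved in opposite directions in each line, which the sum does not show.

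Markers of other cells moved in part with genotype. Of 4 leukocyte markers, 3 were listed for CAKi-1 and 2 for 786O, with CD68 the most abundant (55.6 and 31.6 TPM over all libraries of the line), PTPRC at means below 0.4 TPM, and CD3E not listed. The leukocyte sum was 55.6 to 59.8 TPM in CAKi-1 WT and 49.6 to 60.4 TPM in A4KO, and 42.6 to 43.8 TPM and 19.6 to 21.2 TPM in 786O. Of 4 endothelial markers, only PECAM1 was listed, at 0.209 to 0.555 TPM in CAKi-1 WT and 1.54 to 6.17 TPM in A4KO, and at 0.850 to 1.44 TPM and 0.411 to 0.563 TPM in 786O. Of 5 fibroblast markers, 4 were listed for each line, with sums of 24.1 to 33.6 TPM and 48.05 to 72.35 TPM in CAKi-1 and 10.2 to 14.2 TPM and 8.92 to 11.4 TPM in 786O. The fibroblast sums hide opposite changes in both lines. In CAKi-1, mean COL1A1 went from 10.2 to 36.2 TPM and mean LUM from 3.63 to 1.58 TPM. In 786O, mean PDGFRB went from 0.407 to 4.69 TPM and mean LUM from 7.93 to 1.28 TPM. Of 4 hepatocyte markers, 3 and 2 were listed, led by SERPINA1 (48.4 and 74.8 TPM over all libraries of the line), with sums of 10.6 to 25.5 TPM and 67.05 to 83.59 TPM in CAKi-1 and 118.5 to 125.6 TPM and 28.26 to 30.45 TPM in 786O. The part of other cells in the results above was not tested.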

How the data were processed

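Libraries were grouped by line and genotype from the sample labels. The authors pseudoaligned reads with kallisto against hg38 to make the TPM values as deposited, in a table for each line; versions are not given. The unit was inferred from the values: library sums lie between 961437 and 973887, and no value is exactly 0. A4KO minus WT was fitted with limma 3.58.1 (lmFit, eBayes) in R 4.3.3 on log2(TPM + 1) without a filter, two-sided, with Benjamini-Hochberg adjustment across each line's genes. Shares were compared by exact permutation (scipy 1.17.1), and positions are from GENCODE release 44. Neighbour-centred values subtract, in each library, the median deviation of 25 expressed genes on each side. Named genes are the 9 genes, ANGPTL4, list genes called in a line, and list genes past the adjusted p in both lines with a log2 fold change of 0.5 or more in either direction; others are named where 5 or fewer were counted, or after their values were seen. The genes and lists were chosen with earlier results of these data known. The study itself named IRS1 and IRS2 from these libraries, and also measured both by real-time PCR in CAKi-1. A marker gene of the planned lists is not reported here. The study gives DMEM as medium and the labels RPMI. Alternatives were another pseudocount, a low-value filter, eBayes trend and robust options, quantile normalization, a replicate block, libraries left out and neighbour-centred values.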

Additional observations from a re-analysis of the deposited data

Results flagged for a closer look

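Within groups of 4 or 5 libraries, 2 of 18 groups held a library whose gap to the nearest other exceeded Dixon's 95% limit relative to the range, where chance alone marks about 1 in 20 groups. IGFBP3 in CAKi-1 WT replicate 2 was 26.0 TPM, below the other 3, and IGFBP4 in CAKi-1 WT replicate 4 was 25.1 TPM, above the other 3. The groups of 3 in 786O were not examined in this way.

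The knockout effect differed between the lines by the interaction test for 5 genes. The log2 fold change in 786O less that in CAKi-1 was -1.04 for IRS1, -1.13 for INSR, 0.77 for IGF1R, -2.95 for IGFBP3 and -2.48 for IGFBP4. INSR and IGFBP4 were higher in A4KO in CAKi-1 and lower in 786O. Of all genes listed for both lines, 55.1% passed the same test.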

How the results depend on the processing

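In CAKi-1, 7 of the 9 genes passed the adjusted p under every alternative run, including each library left out and the omission of A4KO replicates 1 and 4. In 786O the number was 5, between 4 and 5 with 1 library left out, 4 with the filter at a mean of 1 TPM and 7 with neighbour-centred values, where IRS1 (0.16) and IGF2R passed as well. The number that differed between lines was 5, with 4 under the filter and 6 without A4KO replicates 1 and 4. Genes called over the whole table numbered 543 in CAKi-1 and 1233 in 786O. They were 1077 and 2095 with a pseudocount of 0.1, and 6349 and 9874 with the adjusted p alone, which drops the fold change threshold. Leaving out 1 library gave 477 to 608 in CAKi-1 and 1221 to 1243 in 786O.

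Sign changes fell mainly on values near 0 that passed no test. IGF2R in CAKi-1 went to -0.12 without A4KO replicates 1 and 4 and ranged from -0.03209 to 0.10 with 1 library left out, and in 786O from -0.01524 to 0.09349. IGFBP5 went to -0.01956 with neighbour-centred values and to -0.001376 without replicates 1 and 4. IRS1 in 786O was 0.02601 with quantile normalization, and IGF1R in 786O ranged from -0.11 to 0.34 with 1 library left out. PIK3CD in CAKi-1 was 0.22 with neighbour-centred values and ranged from -0.13 to 0.07422 with 1 library left out. Neighbour-centred values in 786O gave 0.14 for IGF2, 0.02578 for PIK3IP1, -0.33 for IGFBP7, 0.05408 for FOXO3 and 0.54 for FOXO4. The IRS2 difference between lines was -0.11 with a pseudocount of 0.1, and the CAKi-1 change in the IRS2 share was -2.37 percentage points without replicates 1 and 4, against 3.45 with them. The causes were not tested. Of the other values for list genes, 949 kept their direction and side of the adjusted p threshold, 44 no longer passed it and 1 newly did. For the 9 genes these numbers were 222, 4 and 1. They leave the fold change threshold aside, which IRS1 in CAKi-1 missed in 5 alternatives, IRS2 in CAKi-1 in 2 and IRS2 in 786O in 1.

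With the replicate number as a block (replicate block), 603 genes were called in CAKi-1 and 1233 in 786O. Of the 9 genes, 7 passed in CAKi-1, and 5 of the 8 listed passed in 786O. A4KO replicate 5 has no WT library of its number, so the block also removes it from the CAKi-1 comparison, and leaving it out without a block gave 603 as well. Same-numbered libraries did not deviate together (correlations of -0.0656, 0.128, -0.0467 and 0.153 in CAKi-1 and -0.0558, 0.0111 and 0.014 in 786O), so the numbers do not pair the libraries. Count-based alternatives were left out, since TPM are no counts. The omission of replicates 1 and 4 and neighbour-centred values for list genes and shares were chosen after the data had been seen. Values below 1 TPM, such as INSR in 786O, IGFBP5 and IGF2 in WT cells, are the least certain, and TPM gives no depth to size that.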

Other observations

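Genes not on the lists above were looked up after the values had been seen. IGF2BP1 and IGF2BP3, RNA-binding proteins named for their binding to IGF2 mRNA, had means of 39.2 and 50.03 TPM in CAKi-1 WT and 32.9 and 33.9 TPM in A4KO, with limma log2 fold changes of -0.25 (adjusted p = 0.00631) and -0.55 (adjusted p = 5.66e-04). IGF2BP2 had means of 73.8 and 71.4 TPM (adjusted p = 0.470). In 786O, IGF2BP1 had means of 1.85 and 0.401 TPM (-1.03, adjusted p = 8.54e-04) and IGF2BP3 of 34.6 and 45.8 TPM (0.39, adjusted p = 0.00184). CDKN1C, an imprinted gene in the same chromosome region as IGF2, had overlapping groups in CAKi-1, with means of 36.5 and 22.9 TPM (-0.67, adjusted p = 0.0230; -0.35, adjusted p = 0.139, with neighbour-centred values; -0.91, adjusted p = 0.00306, without A4KO replicates 1 and 4), and means of 22.7 and 1.47 TPM in 786O (-3.26, adjusted p = 1.15e-07).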
